A study of Mus musculus with 12 samples.

Results

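The control pools are the 4 arrays of the series that measured normal midgestation mouse embryos, out of 12 arrays in all, and they were chosen by their label alone. Each was a hybridisation of total RNA to an Illumina expression BeadChip, on which short oligonucleotides are carried by beads and each probe is read as the mean brightness of its beads. The mice were of the NOD strain, an inbred line known for spontaneous autoimmune diabetes, and the pregnancies were labelled normal. Whole embryos were taken at embryonic day 10.5, and equal amounts of RNA from 4 embryos, derived from separate pregnancies, made up each pool. The labels name a hormone injection to bring on estrus for diabetic dams and do not say whether the control dams had it, nor whether the pools shared pregnancies or litters. The sexes of the pooled embryos are not given either. Pooling averages embryos before measurement, so the spread given here is between pools and not between single embryos.

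At this stage the mouse embryo has a beating, looped heart, and its blood carries large nucleated primitive red cells that arose in the yolk sac. The neural tube has been laid down along the axis and its first neurons are leaving the cell cycle, limb buds and pharyngeal arches are growing out, and somites are still being added at the tail. Hox genes, 4 clusters of transcription factor genes, mark position along the head-to-tail axis, with low-numbered members starting near the hindbrain and high-numbered members confined to the trunk, tail and limb ends. Liver, gut, lung and pancreas exist as buds, and the genes of working adult organs are mostly not yet in use.

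A probe was counted as detected in a pool when its deposited detection p-value, the chance that negative control beads give as bright a signal, was under 0.05. Of 32766 probes, 12509 (38.2%) were detected in all 4 pools, 666, 618 and 926 in 3, 2 and 1 of them, and 18047 (55.1%) in none. The 12509 probes carried 98.5% to 98.6% of the summed background-corrected signal of an array. Background correction leaves undetected probes little signal, so a high share follows in part from that step. Of the 12509 detected probes, 10252 have a gene name in the annotation used and 2257 have none. Taking for each gene its brightest detected probe, 6789 of 13334 named genes (50.9%) were detected in all 4 pools, 865 (6.49%) in 1 to 3 pools and 5680 (42.6%) in none. Single arrays detected 13442 to 13736 probes, with a median raw intensity of 59.3 to 62.2 and a median of 44 beads behind each value. A probe in the last class is not well above background, which is not the same as a gene being silent. Of genes with several probes, 35.9% had a probe detected in every pool and another detected in none.

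Tissues of the midgestation embryo were read through 5 markers, and all 5 were detected in all 4 pools, against 50.9% of all named genes. These markers were chosen with earlier results of these data known, so the count is a description and not a test. They are markers of tissues and do not bear on whether an embryo was a control. Hba-x, the embryonic zeta-like alpha globin, read 14.27, 14.25, 14.37 and 14.44 in control pools 1 to 4, on the normalized log2 intensity scale used throughout. Myh6, a heavy chain of cardiac myosin, read 9.69, 9.71, 9.85 and 9.82. Hoxb9, a trunk-level Hox gene, read 6.67, 6.71, 6.81 and 6.63. The pools spanned at most 0.19 in each of these probes. A further Myh6 probe detected in every pool read 7.46, 7.02, 7.06 and 7.63, a range of 0.61. Dcx, the microtubule protein of young migrating neurons, read 7.79, 8.10, 8.02 and 7.92. Afp, the serum protein of yolk sac endoderm and fetal liver, read 8.96, 9.23, 8.48 and 8.63, so that pools 1 and 2 were above pools 3 and 4 and the span was 0.75. The chosen markers of blood, heart, trunk, neurons and endoderm were thus all detected.

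Embryonic globins stood among the brightest probes of all. All 7 globin genes with a named probe were detected in every pool, against 50.9% of all named genes. Hbb-bh1, an embryonic beta-like chain, read 14.87, 14.91, 14.87 and 14.91, and Hbb-y, the embryonic epsilon-like chain, read 14.85, 14.88, 14.83 and 14.81. Hba-a1, an alpha chain used in both embryonic and adult red cells, read 14.65, 14.75, 14.70 and 14.67. The 4 pools lay within 0.10 of each other for each of these chains. The adult beta chains were dimmer and spread more. Over all detected probes the median SD between pools was 0.05 at 14 and above and 0.08 from 10 to under 12. The part of brightness in the difference between these chains was not tested. Hbb-bs read 11.69, 11.82, 12.01 and 12.17, and Hbb-bt read 11.42, 11.58, 11.92 and 12.09, with pool 1 lowest and pool 4 highest in both. The probe named for Hbb-b2, a further adult beta chain, had a mean of 5.44, close to background. Hba-a1 and Hba-a2, and likewise Hbb-bs and Hbb-bt, are near-identical copies, so a probe named for a member of such a pair may also read its partner.

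The promoters of 4 globins are printed because these genes share a lineage while their probes differ in brightness and in spread between pools. Each runs from 250 bases before to 50 bases after the gene's start, 5′ to 3′ along the gene's own strand, as given by RefSeq on GRCm38.p6. Capitals mark exact matches on either strand to GATAA (the core bound by GATA factors), to CACCC (the box bound by Klf factors), to CCAAT (the CCAAT box) and to TATAA (the TATA box). No marked motif overlaps another.
Hba-x promoter (zeta-like alpha chain, chr11:32276350-32276649, plus strand): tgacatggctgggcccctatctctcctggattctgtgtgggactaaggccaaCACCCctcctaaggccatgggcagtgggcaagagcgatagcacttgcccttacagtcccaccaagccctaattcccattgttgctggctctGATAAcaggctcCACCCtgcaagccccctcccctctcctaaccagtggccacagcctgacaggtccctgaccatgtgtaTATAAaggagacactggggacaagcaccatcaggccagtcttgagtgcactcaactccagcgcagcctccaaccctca
Hba-a1 promoter (adult alpha chain, chr11:32283422-32283721, plus strand): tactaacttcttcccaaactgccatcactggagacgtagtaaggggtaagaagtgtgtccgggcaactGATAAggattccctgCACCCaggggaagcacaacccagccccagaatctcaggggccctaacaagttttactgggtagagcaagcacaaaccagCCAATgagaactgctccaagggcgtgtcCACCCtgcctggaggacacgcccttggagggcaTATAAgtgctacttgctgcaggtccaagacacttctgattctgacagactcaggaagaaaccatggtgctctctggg
Hbb-y promoter (embryonic beta-like chain, chr7:103853158-103853457, minus strand): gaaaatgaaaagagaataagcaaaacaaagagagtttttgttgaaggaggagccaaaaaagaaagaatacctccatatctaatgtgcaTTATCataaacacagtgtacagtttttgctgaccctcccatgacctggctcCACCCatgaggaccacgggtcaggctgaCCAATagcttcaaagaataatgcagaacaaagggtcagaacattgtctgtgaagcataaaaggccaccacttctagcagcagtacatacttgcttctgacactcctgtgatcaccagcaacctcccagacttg
Hbb-bs promoter (adult beta chain, chr7:103827879-103828178, minus strand): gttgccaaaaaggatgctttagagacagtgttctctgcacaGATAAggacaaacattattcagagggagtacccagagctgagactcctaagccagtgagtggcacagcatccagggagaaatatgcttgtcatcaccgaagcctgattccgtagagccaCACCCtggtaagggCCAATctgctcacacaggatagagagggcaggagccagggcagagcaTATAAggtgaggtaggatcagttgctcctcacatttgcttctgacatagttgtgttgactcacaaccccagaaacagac
A GATAA match was present in all 4 of these promoters, on the reverse strand in Hbb-y, and in 25.4% of 32851 promoters of the same length. CACCC was found in all 4 as well, with 2 copies in each alpha-like promoter and 1 in each beta-like promoter, against 57.5% of all promoters. CCAAT was found in 3 of the 4 and in 37.4% of all promoters, and TATAA in 3 of the 4 and in 24.9% of all promoters. Hba-x had no exact CCAAT and Hbb-y no exact TATAA in this window. A match is a description of the letters and shows nothing about binding.

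The other genes of the red cell lineage were detected nearly throughout. Of 10 erythroid genes measured, 9 were detected in every pool, and Epb42, a membrane skeleton protein of mature red cells, in none. Alas2, which starts haem synthesis in red cells, read 10.54, 10.76, 10.89 and 11.07. Klf1, the transcription factor that binds the CACCC box of beta globin, read 9.19, 9.46, 9.63 and 9.64. Fech, which inserts iron into haem, read 7.01, 7.23, 7.43 and 7.70. In each of these, pool 1 was lowest and pool 4 highest. Ermap, an erythroid membrane protein, Hemgn, a nuclear protein of red cell precursors, and Nfe2, a globin activator, had means of 8.09, 7.91 and 7.62.

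Of the 53 marker lists examined, 38 were for lineages and processes of the embryo and 14 for mature tissues, beside a short list of genes on the sex chromosomes. The embryo lists together held 425 measured genes, of which 306 (72.0%) were detected in every pool, 24 in 1 to 3 pools and 95 (22.4%) in none. The mature lists held 116 measured genes, of which 26 (22.4%) were detected in every pool, 10 in 1 to 3 pools and 80 (69.0%) in none. Among all named genes these shares were 50.9% in every pool and 42.6% in none. The share detected in every pool was 38.4% for genes with 1 probe and 66.6% for genes with more than 1. The lists were not matched for probes per gene. The count of each list below is to be read beside these shares. In whole-embryo RNA a low signal can come from few cells of a type or from little RNA per cell, and these cannot be told apart.

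**Figure D1:**
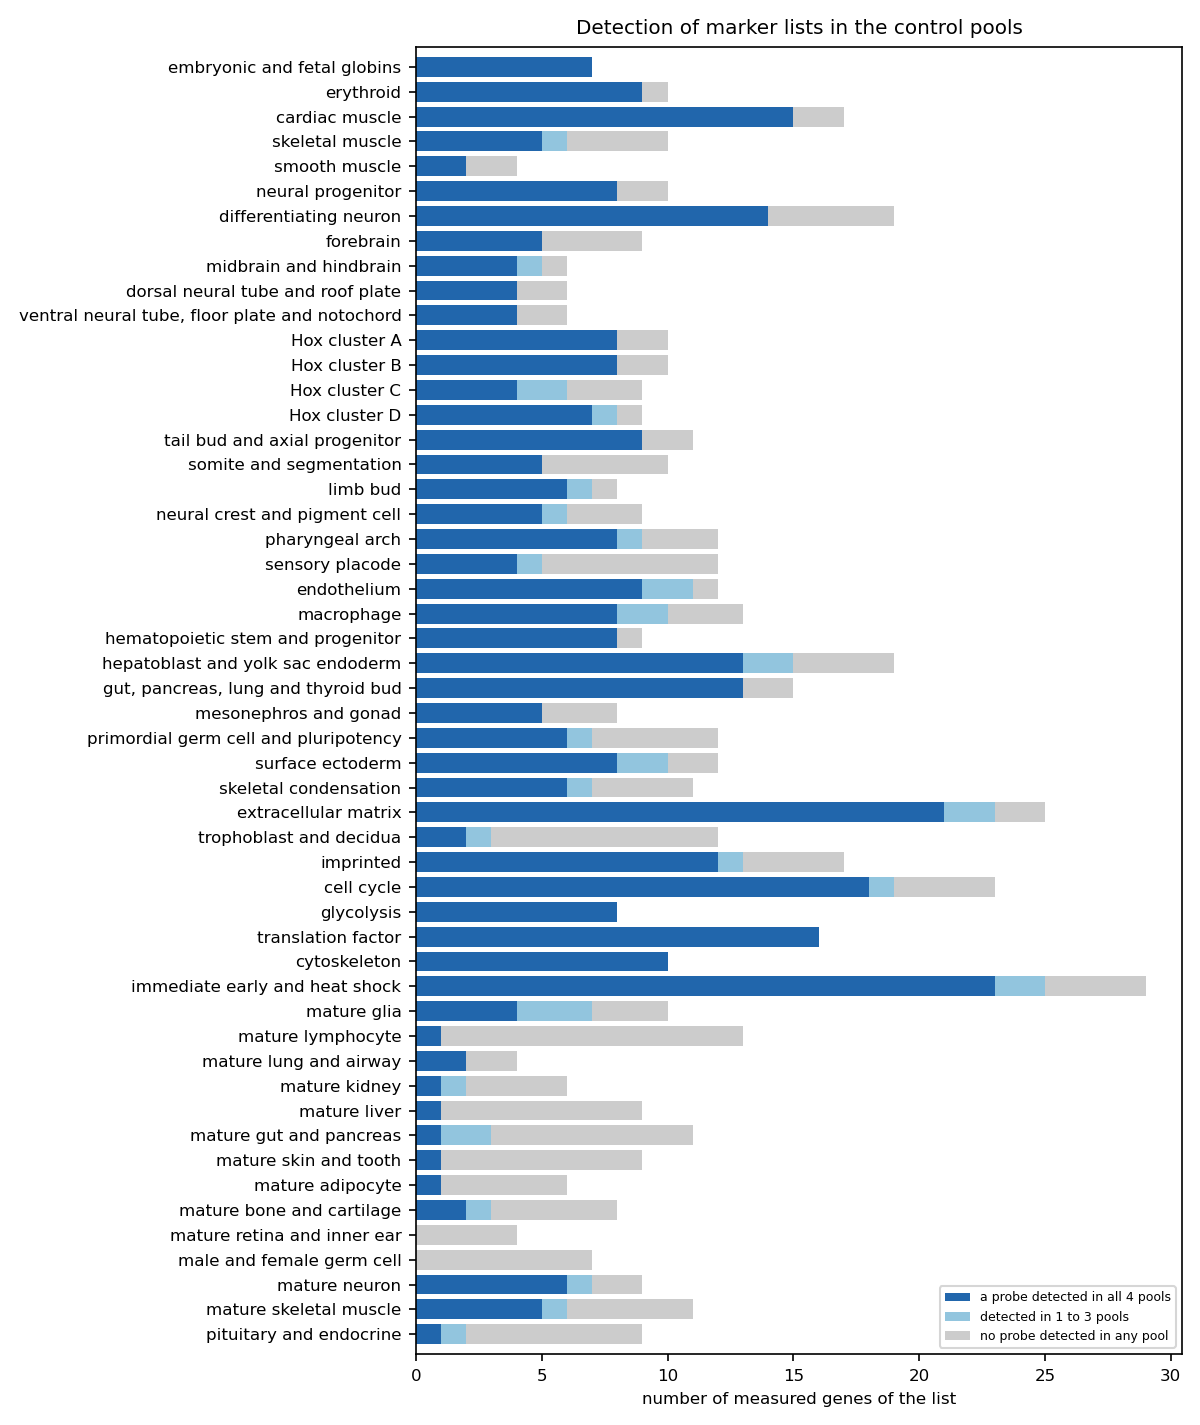
Number of measured genes in each marker list (horizontal axis) that had a probe detected in all 4 control pools (dark blue), in 1 to 3 pools (light blue) or in no pool (grey). The lists of globins, glycolysis, translation factors and the cytoskeleton were detected throughout, whereas 9 of 12 trophoblast and decidua genes and 12 of 13 mature lymphocyte genes were detected in no pool.

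Heart muscle genes were detected in 15 of 17 cases. Myl4, a myosin light chain of embryonic muscle and the adult atrium, read 12.82, 12.73, 12.73 and 12.72, and Actc1, cardiac alpha actin, read 12.28, 12.56, 12.20 and 12.42. Myl2, the ventricular regulatory light chain, read 12.02, 12.14, 12.08 and 12.00, and Myl7, its counterpart in the adult atrium, read 10.91, 10.87, 10.73 and 10.86. Nppa, the atrial natriuretic peptide, had a mean of 11.10 ± 0.06 (SD, n = 4) and Myl3 a mean of 11.51 ± 0.09. Ryr2, the calcium release channel, and Ttn, the giant spring protein of the sarcomere, were detected in no pool. Smooth muscle genes were detected in 2 of 4 cases, near the 50.9% of all named genes. These were Acta2, which early heart also uses, at a mean of 13.03 and Myocd, a coactivator of smooth muscle and heart genes, at 5.85. Cnn1 and Myh11, genes of contractile smooth muscle, were detected in none.

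Of 10 skeletal muscle genes 5 were detected in every pool, near the 50.9% of all named genes. Acta1, skeletal alpha actin, had a mean of 9.48 and Des, desmin, of 8.35, and Myf6, a myogenic regulator, read 7.31, 7.08, 7.05 and 7.11. Myog, the regulator that starts fusion into fibres, read 6.06, 5.85, 5.49 and 5.88, and Chrna1, an acetylcholine receptor subunit, had a mean of 5.36. Myf5 and Myod1, which commit cells to muscle, were not above background in any pool, nor were Lbx1 and Mymk. From the mature list, Myl1 read 11.07, 11.03, 11.05 and 11.04 and Mylpf had a mean of 9.39, both light chains of fast fibres that embryonic muscle already makes. Eno3, Atp2a1 and Actn3, of the same mature list, were also detected in every pool, at means of 10.47, 7.25 and 6.20. Ckm, Mb, Myh1, Myh4 and Ryr1, also of that list, were detected in none, and Casq1 in 1 pool.

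Neural genes were read from progenitor to young neuron. Of 10 progenitor genes 8 were detected in every pool. Nes, the intermediate filament of neural stem cells, read 9.97, 10.08, 10.10 and 10.02, and Notch1, the receptor that holds cells in the progenitor state, read 9.32, 9.32, 9.31 and 9.34. Dbx1, a marker of an intermediate band of the neural tube, Hes5, a Notch target, and Neurog2, which drives neuron formation, had means of 8.70, 8.06 and 7.82. Dbx2 and Neurog1 were detected in none. Of 19 genes of differentiating neurons 14 were detected in every pool. Isl1, of motor and sensory neurons and also of heart and pancreas progenitors, read 10.73, 10.68, 10.72 and 10.57. Gap43, a growth cone protein, read 10.12, 10.09, 10.15 and 10.29, and Map2, of dendrites, had a mean of 9.79. Chga, Mnx1, Nefl, Nhlh1 and Nhlh2 were detected in none, although Nefm, the partner of Nefl in neurofilaments, had a mean of 9.32 ± 0.05 (SD, n = 4). Of 9 mature neuron genes, 6 were detected in every pool, all at low values. The brightest of these were Mapt, the axonal protein tau, at 6.85, and Gad1, which makes GABA, at 6.16, while Calb1 and Gria1 were detected in none. Of 10 mature glia genes 4 were detected in every pool, led by Cldn11 at 8.99 and Mbp at 7.40, and Gfap, Mobp and Mog were detected in none.

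Of 6 genes of the midbrain and hindbrain 4 were detected in every pool. En1, of the midbrain and hindbrain border, read 9.28, 9.03, 9.03 and 9.10, and Gbx2, which sets that border from the hindbrain side, read 9.15, 9.08, 9.23 and 8.92. Fgf8, the signal sent out from the border, read 8.22, 8.10, 8.17 and 8.11. In the forebrain list 5 of 9 genes were detected in every pool, near the 50.9% of all named genes. Dlx2 and Dlx1, of ventral forebrain and pharyngeal arches, had means of 8.68 and 8.59, and Nkx2-1, of hypothalamus, lung and thyroid, read 8.55, 8.16, 8.28 and 7.89. Emx1 and Emx2, of the dorsal cortex, were detected in none, as were Barhl2 and Dlx5. Dorsal neural tube was represented by Msx1, shared with limb and arches, at a mean of 10.75, Msx3 at 7.99 and Lmx1a, of the roof plate, at 7.28, whereas Atoh1 and Msx2 were detected in none. Ventral neural tube was represented by Nkx6-1, Nkx2-2 and Nkx6-2 at means of 7.35, 6.64 and 6.09 and by Foxa2, of the floor plate, at 5.30, near the lowest value of any detected probe (5.15). Gli1, a target of hedgehog signalling, and Noto, of the notochord, were detected in none.

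The Hox clusters were read over most of their length. Of 38 Hox genes with a named probe, 27 were detected in every pool, 3 in 1 to 3 pools and 8 in none. By paralogue group, 10 of 11 genes of groups 1 to 4 were detected in every pool, 7 of 11 of groups 5 to 8 and 10 of 16 of groups 9 to 13. Hoxa5 read 9.92, 9.81, 9.87 and 9.70, Hoxb7 read 9.58, 9.51, 9.74 and 9.29, and Hoxd4 read 9.49, 9.45, 9.38 and 9.03. Hoxc6, a gene of the thoracic level and forelimb, read 11.06, 10.90, 11.17 and 10.88. At the far end of the clusters, Hoxd10 had a mean of 9.29, Hoxc10 of 8.84, Hoxd12 of 6.63, Hoxa11 of 5.84 and Hoxc13 of 5.59. Hoxc11, Hoxc12 and Hoxb13 were detected in none. So were Hoxa6, Hoxa10, Hoxb8, Hoxc8 and Hoxd11, of which Hoxa6, Hoxb8 and Hoxc8 belong to the middle groups.

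Genes of the growing tail were detected in 9 of 11 cases. Lin28a and Lin28b, RNA-binding proteins of early embryonic tissue, had means of 9.35 and 9.03. Fgf17 had a mean of 8.66, and Cyp26a1, which degrades retinoic acid at the tail, read 7.91, 7.73, 7.69 and 7.49. Cdx2, an activator of trunk Hox genes, read 7.19, 7.33, 6.61 and 6.68, with pools 1 and 2 above pools 3 and 4. Cdx4 and Nkx1-2 were detected in none. In the somite list 5 of 10 genes were detected in every pool, near the 50.9% of all named genes. Those detected were Foxc1 and Foxc2, of paraxial mesoderm, at 9.57 and 8.47, Meox1 and Meox2, of the formed somite, at 9.46 and 8.95, and Dll3, a Notch ligand of the presomitic mesoderm, at 5.65. Hes7, Lfng, Mesp1 and Mesp2, genes of the segmentation clock and of the boundary it sets, were detected in none, and neither was Nkx3-2.

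Of 8 limb bud genes 6 were detected in every pool. Irx3 had a mean of 10.15, Alx4, of the anterior bud, of 8.83, and Fgf10, the mesenchymal signal for outgrowth, read 8.26, 8.30, 8.31 and 8.09. Hand2, of the posterior bud and of arches and heart, had a mean of 7.81, and Grem1, an inhibitor of BMP signals, of 5.38. Prrx1 was detected in none. Pharyngeal arch genes were detected in 8 of 12 cases, led by Eya1 at 8.40, Fgf15 at 8.38, Dlx3 at 8.10 and Barx1 at 7.98, with Dlx5, Dlx6 and Fgf3 detected in none. Of 9 neural crest and pigment cell genes 5 were detected in every pool, near the 50.9% of all named genes. Ets1 had a mean of 10.75, Kit, also of blood and germ cells, of 9.62, and Ngfr of 8.81, and Dct, a melanin enzyme, read 6.85, 6.63, 6.70 and 6.39. Erbb3, Foxd3 and Mitf were detected in none. Sensory placode genes had the lowest share among the regional lists, 4 of 12, and Cryaa, a crystallin of the lens, Hmx2 and Hmx3, of the inner ear, and Maf were among the 7 detected in none. Of 12 surface ectoderm genes 8 were detected in every pool, led by the simple epithelial keratins Krt8 at 10.31 and Krt18 at 8.99, with Krt14, of stratified epithelium, at 7.98. Krt5, its partner there, and Krt17 were detected in none, and Krt15 in 3 pools.

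Vessels and blood progenitors were broadly represented. Of 12 endothelial genes 9 were detected in every pool. Egfl7, a secreted vessel protein, read 10.98, 10.92, 11.06 and 11.03, and Emcn, a sialoglycoprotein of the vessel wall, read 10.75, 10.65, 10.54 and 10.46. Cldn5 and Cdh5, of endothelial junctions, had means of 9.04 and 8.76. Kdr, a receptor for vascular growth factor, was detected in none. Of 9 progenitor genes 8 were detected in every pool, with Meis1, also of neural and limb tissue, at 11.90, Lmo2 at 10.09, Gata2 at 8.45 and Cd34 at 7.07, and Gfi1 in none. Macrophage genes were dim, with a median of 6.13 over the 8 of 13 detected in every pool. Pf4, shared with platelets and their precursors, read 9.40, 9.43, 9.24 and 8.96, and Mrc1, Cx3cr1 and Csf1r had means of 6.89, 6.06 and 5.91. C1qa, Cd14 and Fcer1g were detected in none. Of 13 mature lymphocyte genes 1, Cd79b, was detected in every pool, at a mean of 5.36, and the others in none, among them Cd3e, Cd3g, Cd4 and Cd74.

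Endoderm was represented mainly by genes of its early buds. Of 19 genes of hepatoblasts and yolk sac endoderm 13 were detected in every pool. Dlk1, an imprinted gene of hepatoblasts and many other embryonic tissues, had a mean of 13.76, and Hhex and Foxa1, which pattern early endoderm, had means of 7.68 and 7.34. Apom and Apoe, carriers of lipid, had means of 7.23 and 7.06. Alb, the main serum protein of the later liver, was detected in none, as were Apoc2, Cubn and Fgb. Of 9 mature liver genes, only Ass1, of the urea cycle, was detected in every pool, at 7.51, and Cps1, Cyp1a2, Cyp2c29, Cyp2e1, Cyp3a11 and Cyp7a1 were among the 8 detected in none. In the list of gut, pancreas, lung and thyroid buds 13 of 15 genes were detected in every pool. Cldn6, an embryonic tight junction protein, had a mean of 10.26 and Cdh1, the epithelial cadherin, of 8.61. Gcg, the glucagon precursor, read 8.21, 7.69, 7.74 and 7.63, and pool 1 was highest. Ins2, an insulin gene, and Isx were detected in none. Of 11 mature gut and pancreas genes Gcg was the 1 detected in every pool, and Alpi, Amy2a5, Cela1, Cela2a, Ctrb1 and Fabp2 were among the 8 detected in none.

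Of 8 genes of the kidney and gonad ridges 5 were detected in every pool. They were Cited2 at 11.54, Foxd1 at 9.37, Gata3 at 7.63, Gdnf, the signal that draws out the ureteric bud, at 7.28, and Lhx1 at 7.20, while Emx2, Hoxd11 and Nr5a1 were detected in none. Of 11 genes of skeletal condensations 6 were detected in every pool, near the 50.9% of all named genes. Col2a1, the main cartilage collagen, read 11.07, 11.11, 11.28 and 11.41, and Col9a1 and Sox5 had means of 9.71 and 9.04. Acan, Bglap, Comp and Matn1, of formed cartilage and bone, were detected in none. In the germ cell and pluripotency list 6 of 12 genes were detected in every pool, again near the 50.9% of all named genes. The brightest were Ifitm1 and Ifitm3, which many embryonic cells use, at 10.19 and 10.01, and Dnd1 had a mean of 6.54. Dazl, Ddx4, Dppa3, Nanos3 and Prdm14, which are more restricted to germ cells, were detected in none. None of 7 later germ cell genes, among them Acr, Bmp15, Figla and Gdf9, was detected in any pool, nor were any of the 4 retina and inner ear genes Arr3, Crx, Gnat1 and Nrl.

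Genes of the placenta and the maternal lining that had a named probe were mostly not above background. The Prl and Psg genes listed, Tpbpa, Tpbpb, Gcm1, Plac1 and Peg10 had none and could not be read. Of 12 trophoblast and decidua genes, 2 were detected in every pool, Cryab at 7.71, which is also a lens and muscle chaperone, and Cited1 at 6.30, which the embryo also uses. Ctsj, a placental cathepsin, was detected in pool 2 alone, at 5.83, and read 4.43, 4.55 and 4.48 in the others. The remaining 9, among them Ascl2, Cts7, Ctsm, Ctsq, Ctsr and Dcpp1, were detected in no pool.

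Among the remaining mature lists, Krt10, at 9.26, was the 1 of 9 skin and tooth genes detected in every pool, Lpl, at 9.97, the 1 of 6 adipocyte genes, and Lrp2, an uptake receptor that neural and visceral epithelia also carry, at 8.71, the 1 of 6 kidney genes. Adipoq, Fabp4, Lep and Plin1 were not above background in any pool, and the same held for Aqp2, Cdh16 and Nphs1 of the kidney. Of 9 pituitary and endocrine genes, Lhx3, at 5.64, was detected in every pool, and Cga, Fshb and Gh in none. Ager and Foxj1 were detected in every pool, at 6.27 and 5.55, which is 2 of the 4 lung and airway genes, near the 50.9% of all named genes. Ctsk and Acp5, of bone-resorbing cells, were detected among 8 bone and cartilage genes, at 5.86 and 5.33.

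The signal was concentrated in few probes. The 10 brightest probes of an array held 2.50% to 2.61% of its summed background-corrected signal. The 100 brightest held 18.6% to 19.3% and the 1000 brightest 58.7% to 60.6%. Normalized values of the detected probes ran from 5.15 to 14.99 with a median of 7.79, and 97 probes read 14 or more. Of the 30 brightest probes 16 have no gene name in the annotation used, as do 59 of the brightest 100. The ranking that follows is of signal. A probe's brightness depends on how well it binds as well as on its transcript, so the order is not an order of transcript numbers.

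**Figure D2:**
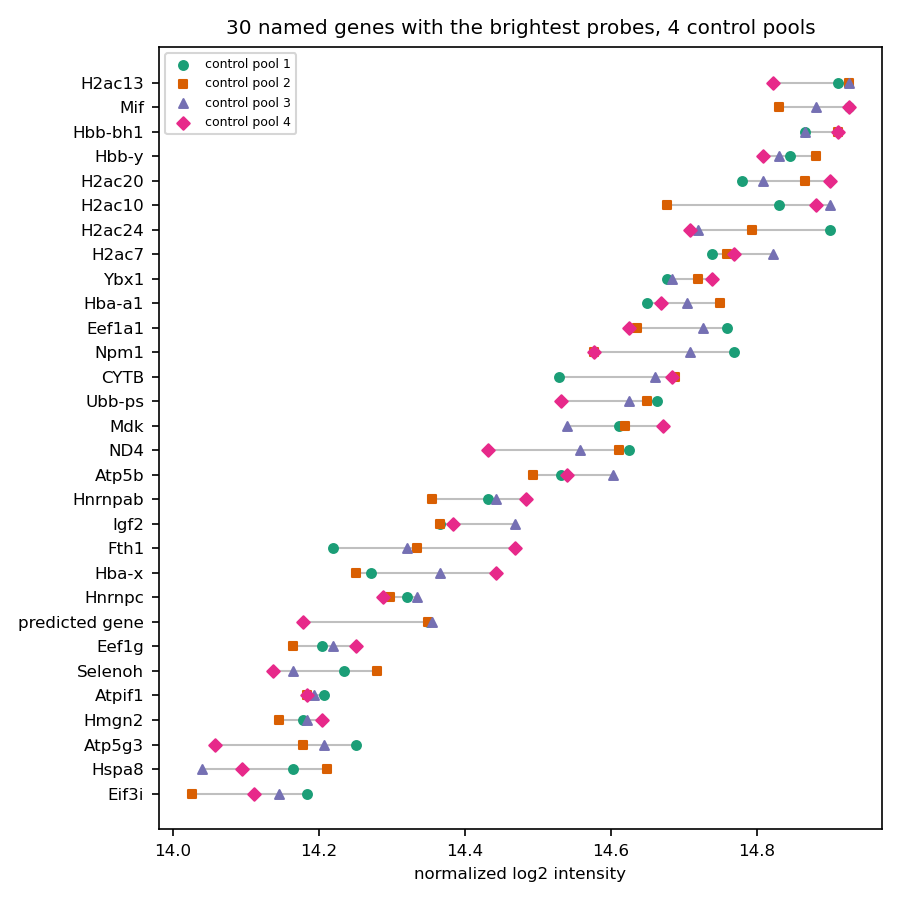
Normalized log2 intensity (horizontal axis, not starting at 0) of the 30 named genes with the brightest probes, 1 symbol per control pool, with a grey line from the lowest to the highest pool. The means fall from 14.90 for H2ac13 to 14.12 for Eif3i, and the ranges of neighbouring genes overlap or touch except between Atp5b and Hnrnpab.

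The brightest named gene was a histone gene. H2ac13, a replication-linked histone H2A gene, read 14.91, 14.93, 14.93 and 14.82, and 4 more genes of that family, H2ac20, H2ac10, H2ac24 and H2ac7, had means of 14.84, 14.82, 14.78 and 14.77. These genes are near-identical in sequence, so their probes may read each other's transcripts. Their mRNA normally ends without a poly(A) tail, and how the labelling kit read it is not given in the sources used here. Mif, a secreted cytokine and enzyme, read 14.93, 14.83, 14.88 and 14.93, and Ybx1, an RNA- and DNA-binding protein, had a mean of 14.70. Eef1a1, which delivers transfer RNA to the ribosome, read 14.76, 14.64, 14.73 and 14.62, and Npm1, a nucleolar chaperone of ribosome assembly, read 14.77, 14.58, 14.71 and 14.58. Among the 30 brightest named genes the ranges of neighbours in the order overlapped or touched, except between Atp5b and Hnrnpab.

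Further down the same list stood Mdk, the heparin-binding growth factor midkine of midgestation embryos, which read 14.61, 14.62, 14.54 and 14.67, and Igf2, the paternally expressed growth factor, which read 14.37, 14.37, 14.47 and 14.38. Fth1, the iron store ferritin heavy chain, read 14.22, 14.33, 14.32 and 14.47, with pool 1 lowest and pool 4 highest. CYTB and ND4, respiratory chain genes on the mitochondrial genome, had means of 14.64 and 14.56, and Atp5b, Atp5g3 and Atpif1, of the ATP synthase and its inhibitor, had means of 14.54, 14.17 and 14.19. Hnrnpab and Hnrnpc, which package nuclear RNA, Eef1g and Eif3i, of translation, Hmgn2, a nucleosome-binding protein, Selenoh, a nucleolar selenoprotein, Hspa8, the constitutive heat shock chaperone, and Ubb-ps, a ubiquitin pseudogene, made up the rest with 1 predicted gene. Probes for a pseudogene can read the parent gene. Among the 100 brightest named genes were 9 histone genes, 9 nuclear genes of the respiratory chain and ATP synthase, 5 genes of the mitochondrial genome and 6 hnRNP genes. No ribosomal protein gene was among them, and only 3 ribosomal protein genes have a named probe here.

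Of 17 imprinted genes 12 were detected in every pool, with a median of 12.09, and 5 of them, Igf2, Grb10, Mest, Dlk1 and Cdkn1c, were among the 100 brightest named genes. Grb10, a maternally expressed brake on growth receptors in most tissues, read 13.83, 13.76, 13.83 and 13.81. Mest, a paternally expressed mesoderm gene, read 13.87, 13.82, 13.74 and 13.74, and Cdkn1c, a maternally expressed inhibitor of the cell cycle, read 13.57, 13.62, 13.72 and 13.78. Ascl2, Dio3, Kcnq1ot1 and Peg3 were detected in none. Of 23 cell cycle genes 18 were detected in every pool, with a median of 11.56, among them Mcm4, Mcm5 and Mcm6, of the replication helicase, at 13.11, 12.99 and 12.61, Cdk4 at 12.64 and Cdk1 at 12.09. Bub1, Ccnb2, Cdkn1b and Cdkn2b were detected in none. All 16 genes of the translation factor list (median 13.34) were detected in every pool. That list also holds Npm1, Ncl, Nap1l1 and Naca, which are not translation factors. All 8 glycolysis genes were detected in every pool too, led by Gapdh at 13.95, Ldha at 13.69 and Aldoa at 12.64. Of 25 extracellular matrix genes 21 were detected in every pool, led by the basement membrane collagens Col4a1 at 11.77 and Col4a2 at 11.03, and Tnc and Vcan in none. The list of cytoskeletal and other structural housekeeping genes was detected throughout (10 of 10), with Actb, cytoplasmic actin, at 13.52 and Marcks, an actin crosslinker, at 13.78.

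The 4 pools were close to each other. Over the 12509 detected probes, Pearson's r between pools across probes was 0.9951 to 0.9972 in the 6 pairs and Spearman's rho 0.992 to 0.995. Probes are not independent replicates, and a wide range of levels makes such values high. The median absolute difference between a pair of pools was 0.091 to 0.128 on the log2 scale, and 81.9% to 90.7% of probes lay within 1.2-fold. Pools 1 and 2 were the closest pair, with 0 probes 2-fold apart, and pools 1 and 4 the most distant, with 7. The SD over the 4 pools had a median of 0.10 and a 95th percentile of 0.23.

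The spread between pools was set beside the error of reading a probe from a limited number of beads. The deposited bead standard errors correspond to a median error of 0.067 on the log2 scale, and the SD between pools was a median of 1.48 times that error. The SD exceeded the bead error for 77% of probes, and was more than 2 times as large for 26.6%. Spread fell with brightness. The median SD was 0.14 for probes under 6, 0.12 from 6 to 8, 0.09 from 8 to 10 and 0.05 at 14 and above. Normalization gave every array the same set of values, which caps the brightest probes alike, and its part in this fall was not tested. The number of arrays limits the precision of each SD, which rests on 4 values.

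**Figure D3:**
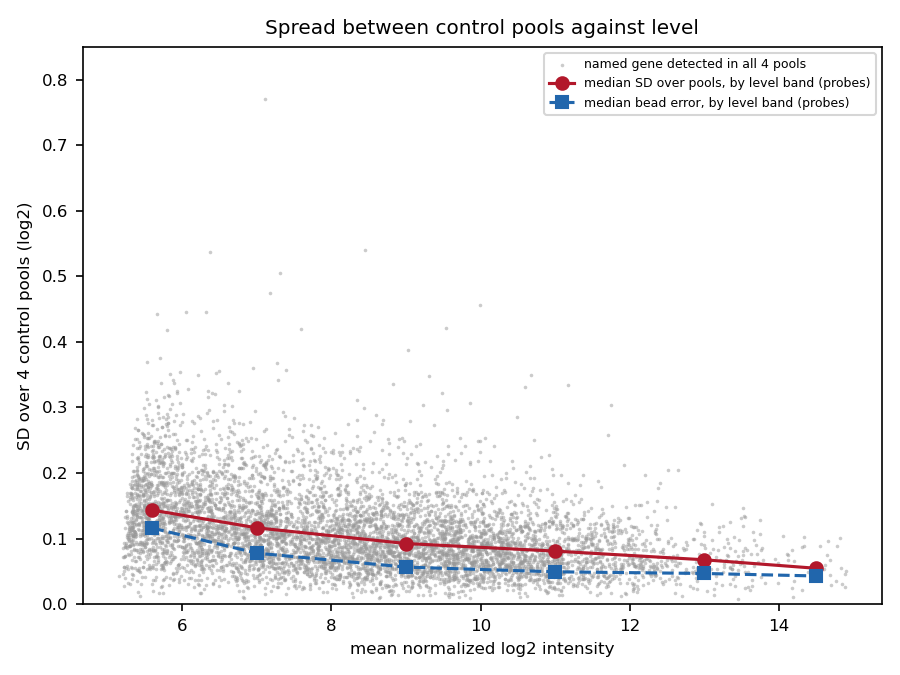
SD over the 4 control pools (vertical axis, log2) against mean normalized log2 intensity (horizontal axis), 1 grey point per named gene detected in all pools. Red circles join the median SD of the detected probes in 6 level bands and blue squares the median bead error; the former falls from 0.14 to 0.05 and the latter from 0.12 to 0.04.

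Between-pool differences were small for most lists and widest for red cell genes. The 9 detected erythroid genes averaged -0.26, -0.03, 0.11 and 0.19 in pools 1 to 4, relative to their own means over the pools. All 9 were below their mean in pool 1 and all 9 above it in pool 4. The 7 globins averaged -0.11, -0.05, 0.03 and 0.14, with the widest spread in the adult beta chains Hbb-bt and Hbb-bs. Among the embryonic chains Hbb-bh1 spanned 0.04, Hbb-y was lowest in pool 4, and Hba-x was highest in pool 4 and spanned 0.19. Over the 13 hepatoblast and yolk sac genes pool 2 was highest, at 0.15, and pool 4 lowest, at -0.15, with 12 of 13 below their mean in pool 4. The 21 extracellular matrix genes averaged -0.09, -0.06, 0.04 and 0.11. The 16 genes of the translation factor list averaged within 0.03 of their means in every pool, and the 14 neuron genes did likewise. These are averages over genes, and single members spread more, such as Eif3h by 0.85 and Lhx3, of the neuron list, by 0.55. Differences in the stage or in the makeup of the pooled embryos were not measured, and their part in these values was not tested.

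**Figure D4:**
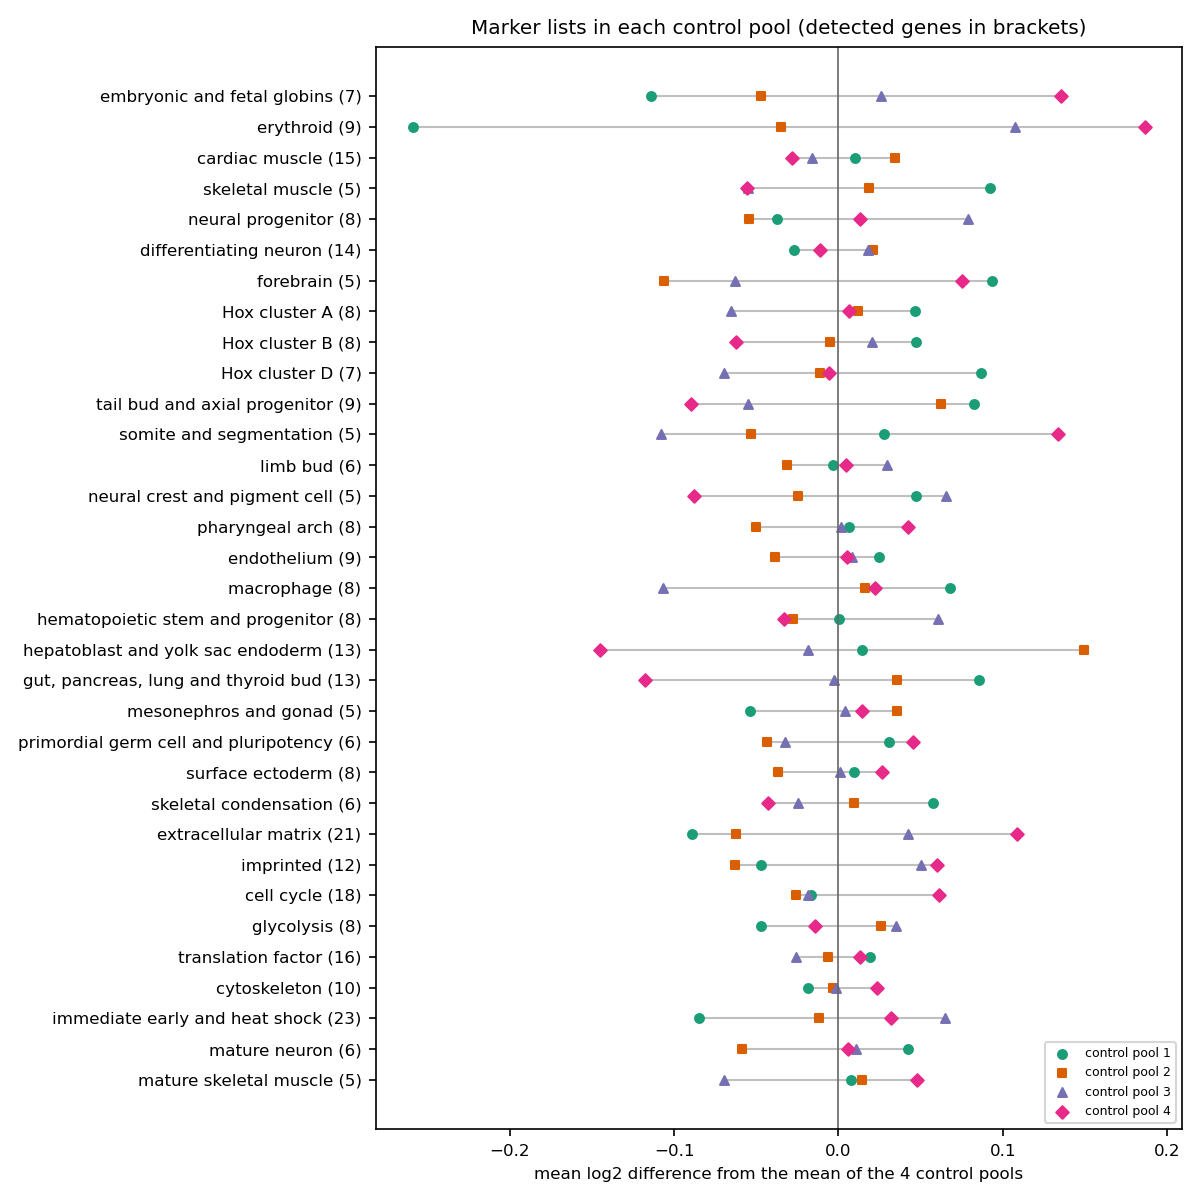
Mean log2 difference of each marker list from the mean of the 4 control pools (horizontal axis), for lists with at least 5 genes detected in every pool, 1 symbol per pool and the number of genes in brackets. The erythroid list spans from -0.26 in pool 1 to 0.19 in pool 4, and the translation factor list from -0.03 to 0.02.

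Of 6789 genes detected in every pool, 8 (0.118%) had a range of 2-fold or more and 141 of 1.5-fold or more. The 8 became 2 without pool 1, 4 without pool 3 and 2 without pool 4. With all pools, the number was 2 with no background correction, 2 with normexp and 30 in the deposited value table. ND6, the respiratory chain gene that lies alone among protein genes on the light strand of the mitochondrial genome, read 8.03, 7.19, 7.08 and 6.15, the widest range of any gene detected in every pool, 3.68-fold. Adat1, a transfer RNA deaminase, read 7.86, 7.48, 7.25 and 6.66. A further probe of Adat1 detected in every pool had its pools in the same order, with a range of 0.92 around a mean of 6.55. The other Adat1 probes, near background and detected in 3 pools, had pool 1 lowest, at 4.85 and 4.99. Gas5, a noncoding host gene of small nucleolar RNAs, read 6.63, 5.89, 6.10 and 5.57, and Nprl3, a regulator of growth signalling whose gene lies beside the alpha globin cluster, read 8.15, 7.52, 7.54 and 7.13. A further Nprl3 probe, detected in 3 pools near background, read 5.20, 5.00, 5.36 and 5.21. In the brightest probe of each of these 4 genes pool 1 was highest and pool 4 lowest. By contrast, Alas2, Klf1, Fech, Hbb-bs and Hbb-bt had pool 1 lowest and pool 4 highest.

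Several other genes of this group had pool 1 lowest. Fos, an immediate early transcription factor that is induced within minutes of a stimulus, read 7.80, 8.23, 9.01 and 8.75, and its relative Fosb read 5.33, 5.66, 6.34 and 5.85. The immediate early and heat shock list to which both belong had 23 of 29 genes detected in every pool, and these averaged -0.08, -0.01, 0.06 and 0.03 in pools 1 to 4. Gabrp, a GABA receptor subunit, read 6.55, 7.09, 7.57 and 7.51, and its other probe read 5.38, 5.76, 6.17 and 6.29. Col1a1, the main collagen of loose and bony connective tissue, read 9.56, 9.63, 10.35 and 10.41, with pools 3 and 4 apart from pools 1 and 2. Kifc1, a spindle motor, read 9.17, 9.24, 9.67 and 10.08, and its other probe kept that order at 5.02, 5.59, 6.03 and 6.47. In Nrip1, Eif3h, Akap5 and Apoa2 pool 1 was not the lowest. Nrip1, a nuclear receptor corepressor, read 6.03, 6.58, 5.84 and 7.02, with pool 4 highest. Eif3h read 9.33, 9.29, 8.87 and 9.72, Akap5 6.38, 6.59, 6.64 and 5.68, and Apoa2, an apolipoprotein, 6.56, 6.81, 6.50 and 5.97. Noxo1 and Mgl2, both near background, completed the 15 widest with ranges of 1.97-fold and 1.80-fold. Noxo1 read 6.25, 5.77, 5.27 and 5.38, with pool 1 highest. Its other probe, also detected in every pool, read 5.46, 5.18, 5.28 and 5.34.

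**Figure D5:**
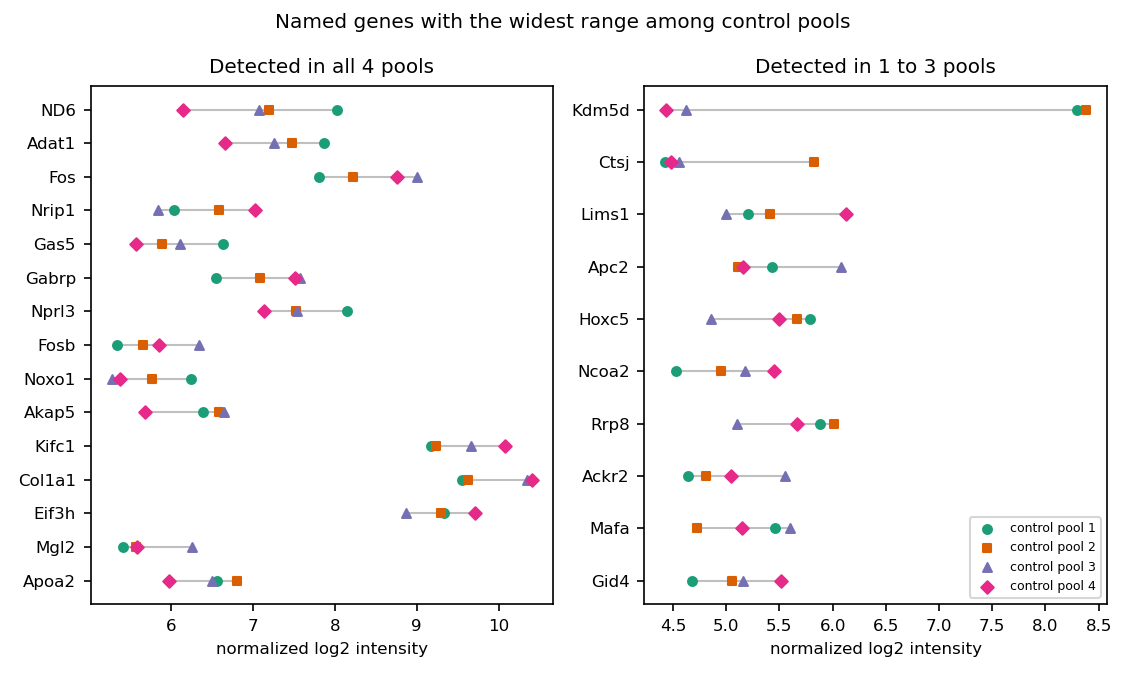
Normalized log2 intensity (horizontal axes, not starting at 0) of the 15 genes with the widest range among those detected in every pool (left) and of the 10 widest among those detected in 1 to 3 pools (right), 1 symbol per control pool. Kdm5d reads above 8 in pools 1 and 2 and below 5 in pools 3 and 4.

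Genes detected in 1 to 3 pools mostly sat at the threshold. Of these 865 genes 3 had a range of 2-fold or more, and the median range was 0.40. Kdm5d, a histone demethylase gene on chromosome Y, read 8.29 and 8.38 in pools 1 and 2, where it was detected, and 4.63 and 4.43 in pools 3 and 4, where it was not. Eif2s3y, also on chromosome Y, was detected in no pool and read 5.11, 4.76, 4.59 and 4.94. The only other gene of chromosome Y detected anywhere among the 10 measured was a predicted gene, near background in all 4 pools. On chromosome X, Eif2s3x, the partner of Eif2s3y, read 12.21, 12.29, 12.40 and 12.45, Ddx3x read 11.67, 11.70, 11.44 and 12.06, and Kdm5c, the partner of Kdm5d, read 5.36, 5.63, 5.66 and 5.33. Eif2s3x was lower in pools 1 and 2 than in pools 3 and 4, by far less than Kdm5d was higher there, and in Ddx3x and Kdm5c these pairs of pools overlapped. Whether the pools differ in the sex of their embryos was not tested.

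The third gene with a 2-fold range, beside Kdm5d and Ctsj, was Lims1, an adaptor at cell adhesions, which read 5.21, 5.41, 4.99 and 6.12. The next were Apc2, Hoxc5, Ncoa2, Rrp8, Ackr2, Mafa and Gid4, whose ranges ran from 1.79-fold to 1.96-fold at means of 5.01 to 5.66. Probes that passed the threshold in 3 pools and missed it in 1 numbered 666, with a median of 5.24. Those that passed in all 4 with a detection p of 0.04 or more in at least 1 pool numbered 241, with a median of 5.31.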

How the data were processed

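The 4 control pools were taken by their label, and probes were kept when detected in all of them. The authors deposited the mean bead intensity of every probe, uncorrected for background and unscaled, beside detection p-values. The bead standard errors (a signal in intensity units) and the bead number counts per probe were also deposited by the authors. GenomeStudio was used, per the submitters' processing notes; array slides, scan batches and a genome build are not given in the sources used here, so batches could not be examined. A second deposited table holds linear intensities with background subtracted and scaled by an unstated method, with no centring; its medians on the control arrays were 8.49 to 8.60.

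Intensities of the 4 arrays were background-corrected on inferred negative controls, quantile-normalized and put on a log2 scale with limma 3.58.1 (neqc, offset 16) in R 4.3.3. These log2 values compress differences near background. Probe names came from the platform annotation, updated through Entrez numbers to RefSeq symbols on GRCm38.p6: of 32766 probes 23340 had 1 symbol, 13 had several and 9413 were not listed. Each gene was represented by its brightest probe on average, taken from the probes detected in all pools where it had any. Bead error is the deposited standard error relative to the background-corrected intensity, on the log2 scale. The detection threshold was p under 0.05. No group was compared with another and no test was run, since 1 group holds no contrast. The spread calculation was tested on simulated data.

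The genes named were the 30 brightest, the 5 markers, up to 6 detected genes with the highest means and up to 6 undetected genes in alphabetical order from each list, the 15 and 10 widest ranges among genes detected in all pools and in 1 to 3, and the detected sex-linked genes. The 4 adult and embryonic globin promoters, 1 further globin probe, undetected Eif2s3y and the additional probes of named genes were added after their values were seen. Genes with predicted names were counted without being named. The genes and lists were chosen with earlier results of these data known. Alternatives were a detection p under 0.01, neqc over all 12 arrays, no background correction, normexp with an offset of 50, median scaling, the deposited value table, the mean over a gene's detected probes, and leaving out each pool.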

Additional observations from a re-analysis of the deposited data

Results flagged for a closer look

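Of 98 values examined over the 4 pools (the lists' mean shifts and the named genes), 6 had a pool further from the other 3 than Dixon's 95% critical share of the whole range, which chance gives in about 1 in 20 groups. The 18 detected cell cycle genes averaged 0.061 above their means in pool 4, against -0.02, -0.03 and -0.02 in pools 1 to 3, and 15 of the 18 were above their mean there. Ctsj, the placental cathepsin, read 5.83 in pool 2 and 4.43 to 4.55 in the others, and was detected in pool 2 alone. The other 4 such values were of genes near the top of the scale and were small. H2ac13 read 14.82 in pool 4, below 14.91 to 14.93 elsewhere, and CYTB read 14.53 in pool 1, below 14.66 to 14.69 elsewhere. Igf2 read 14.47 in pool 3, above 14.37 to 14.38 elsewhere. A predicted gene among the 30 brightest read 14.18 in pool 4, below 14.35 elsewhere.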

How the results depend on the processing

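No paired analysis was possible because no groups were compared and no test was run. The number of genes with a range of 2-fold or more, 8 as reported, was 2 with no background correction, 2 with normexp, 30 in the deposited value table, and 2 to 8 when a pool was left out; fewer pools give narrower ranges by construction. The median SD, 0.104 as reported, was 0.0842 with no background correction, 0.0788 with normexp and 0.119 in the value table, and 0.0903 to 0.105 when a pool was left out. The median pairwise r, 0.9960 as reported, was 0.99693, 0.9971 and 0.9949 under the same 3 settings. When the mean over a gene's detected probes replaced the brightest probe, 17 of the 30 brightest genes were shared. Why the other settings moved these values was not tested. Leaving out a pool gave 12613 to 12717 detected probes, 308 to 310 detected genes of the embryo lists and 26 to 27 of the mature lists. A detection p under 0.01 left 10857 probes, 281 embryo-list genes and 19 mature-list genes detected in every pool. Over the alternatives of normalization, with all 4 pools, the log2 range of ND6 stayed between 1.36 and 2.18 and that of Fos between 1.05 and 1.28, while that of Fosb ran from 0.54 to 1.40. Of the 5 markers, Hba-x stayed at percentile 99.67 to 99.85 of the detected genes and Myh6 at 62.8 to 73.6. Signal over background limits genes near 5.2, where detection turns on small differences.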
